A study of Homo sapiens with 2 samples.

Results

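The RAB genes described here are all rows of the gene tables whose symbol is RAB followed by a number, an optional letter and optional further digits. This took in 60 of 22474 listed genes, of which 59 are protein-coding and 1, RAB43P1, is a processed pseudogene in GENCODE 29. They were measured by Smart-seq2 in cells of H9, an established human embryonic stem cell line, in feeder-free extended pluripotent stem cells (ffEPSCs) made from H9 and in the H9 embryonic stem cells (ESCs) themselves. The ffEPSC library held 25 cells and the ESC library 16 cells, each library being 1 deposited sample, and the labels name no further genotype, agent, passage or culture condition for either state. The study set out to compare gene expression between the states. With 1 sample per state, no test between them was possible, and the values describe these libraries.

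RAB proteins are small GTPases that mark membrane compartments. In the GTP-bound form, set by guanine nucleotide exchange factors (GEFs) and ended by GTPase-activating proteins (GAPs), each recruits effectors that bud, move, tether or fuse vesicles; prenyl groups anchor the proteins, and escort proteins and GDP dissociation inhibitors carry them between membranes. Widely used members such as RAB1, RAB5, RAB7 and RAB11 serve routes that every cell needs, while others, such as RAB17 and RAB25 in epithelia or the RAB3 group in secretory cells and neurons, are known for restricted expression.

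Gene counts summed to 374101290 in the ffEPSC library (12507469 to 17811209 per cell) and to 265412149 in the ESC library (11714517 to 19965639 per cell). Levels are in CPM, a gene's summed counts as a share of the library total times 1000000. A ratio divides the ffEPSC level by the ESC level, each plus 1 CPM, and is given as its log2. The 95% intervals stand for counting error alone, since amplified reads are not independent molecules. Cell names carry a set number of unstated meaning; sets 1 and 3 hold both states, with 3 and 2 ffEPSC cells against 7 and 9 ESC cells. The 4 ESC cells with the fewest counts (11714517 to 14683949) were also those with the least POU5F1, at 63.5 to 218 CPM against 496 to 1310 CPM in the other 12 ESC cells, so results are also given without them where they move. All 10 markers of pluripotent cells were read in both libraries within 2-fold, with SOX2 lowest at 44.9 CPM in ffEPSCs and 33.9 CPM in ESCs. Fibroblast markers, 10 of 14 listed, summed to 54.3 to 429 CPM per cell in ffEPSCs and to 151 to 765 CPM in ESCs. Most of this was THY1, read in every cell, at 169 of 205 CPM in the ffEPSC library and 382 of 504 CPM in the ESC library. Of the 5 with 5 CPM in either library, 4 were at least 2-fold lower in ffEPSCs. Of all genes with 5 CPM in either library, 5.84% were. PDGFRB had 0 reads in ffEPSCs and 2.03 CPM in ESCs. Neural markers, 13 of 14 listed, summed to 12.2 to 152 CPM per cell in ffEPSCs and to 87.2 to 258 CPM in ESCs, with PAX6 at 0.0802 and 0.354 CPM. Of the 5 neural markers with 5 CPM in either library, 3 were at least 2-fold lower in ffEPSCs, beside the same 5.84% of all genes. They were FABP7 (1.03 CPM in ffEPSCs and 62.6 CPM in ESCs, -4.97), MAP2 (-3.42) and SYT1 (-1.19). Whether these marker differences had a part in any RAB result was not tested.

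Promoter sequence (RefSeq, GRCh38.p14, the 250 bases before the start site, 5′ to 3′ on the gene's strand) is shown for the lowest RAB gene, RAB17 (chr2:237590735-237590984, minus strand), for RAB8B, which was also lower (chr15:63189356-63189605, plus strand), for RAB3B, which was higher (chr1:51990701-51990950, minus strand), and for RAB25, the other RAB known from epithelia, whose level differed little (chr1:156060910-156061159, plus strand). Capitals mark CAGGTG or its reverse complement CACCTG, an E-box bound by several repressors and activators of epithelial genes.
RAB17: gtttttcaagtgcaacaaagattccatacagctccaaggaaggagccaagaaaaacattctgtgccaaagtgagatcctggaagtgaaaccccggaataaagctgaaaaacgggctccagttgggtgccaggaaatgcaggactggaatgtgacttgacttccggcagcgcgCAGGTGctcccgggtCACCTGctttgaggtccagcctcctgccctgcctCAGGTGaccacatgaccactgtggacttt
RAB8B: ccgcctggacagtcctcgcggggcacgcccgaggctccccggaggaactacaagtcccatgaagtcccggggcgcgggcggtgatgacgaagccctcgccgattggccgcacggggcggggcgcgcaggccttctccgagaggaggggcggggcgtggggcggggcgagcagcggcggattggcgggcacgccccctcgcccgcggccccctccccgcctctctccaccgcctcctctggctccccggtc
RAB3B: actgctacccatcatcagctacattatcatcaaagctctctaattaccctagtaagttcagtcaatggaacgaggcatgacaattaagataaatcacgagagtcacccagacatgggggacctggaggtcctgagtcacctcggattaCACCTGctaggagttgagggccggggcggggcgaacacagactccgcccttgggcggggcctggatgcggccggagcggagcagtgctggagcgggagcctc
RAB25: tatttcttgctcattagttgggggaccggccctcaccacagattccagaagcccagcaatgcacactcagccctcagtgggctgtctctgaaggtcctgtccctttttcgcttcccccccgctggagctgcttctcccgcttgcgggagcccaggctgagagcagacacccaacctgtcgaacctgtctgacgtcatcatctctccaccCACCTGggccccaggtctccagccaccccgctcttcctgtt
The RAB17 window held 3 E-boxes of this form, starting 78, 63 and 29 bases before the start site, against 1 each in RAB3B and RAB25 and 0 in RAB8B. Among windows not shown, RAB3C, also lower, held 0, and RAB19, at a log2 ratio of 0.56, held 2. No window was available for RAB33A, RAB33B or RAB15. At least 1 was present in 17.5% of all 34943 windows and in 11 of 66 RAB windows (16.7%), which cover 47 of the 60 genes, and 3 or more were present in 0.461% of all windows. CpG dinucleotides numbered 6 in RAB17, 8 in RAB25, 12 in RAB3B and 33 in RAB8B, beside a median of 11 over all windows and of 19.5 over 66 RAB windows. Of all windows 49.9% held 10 CpG or fewer, so those of RAB17 and RAB25 were near the middle of all windows. Whether the E-boxes or the CpG content had a part in any ratio between the states was not tested. The RAB17 window lies inside the GENCODE span of the gene, whose outermost start is farther upstream. A match is a description of the letters and not a binding site.

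As a family, the RAB genes were close to steady between the states. They summed to 3036 CPM in ffEPSCs (2425 to 3666 CPM per cell) and to 2947 CPM in ESCs (2247 to 3330 CPM per cell). Of the 60 genes, 43 had 5 CPM in at least 1 library and are called measured; 38 of these had 5 CPM in both libraries, 4 passed through ESCs alone and 1 through ffEPSCs alone. Lower by at least 2-fold in ffEPSCs were 4 of the 43 (9.3%), where 5.84% of all 10825 measured genes were, and higher by as much were 2 of the 43 (4.65%), where 8.3% of all measured genes were. The remaining 37 (86%) were within 2-fold, where 85.9% of all measured genes were. These shares lie near the background, so the family did not stand apart as a whole. Among the lower members, RAB17, RAB33A and RAB3C passed the 5 CPM floor through ESCs alone, the state where they were higher. The median log2 ratio was -0.05 over the measured members, 0.04 over all 60 and 0.04 over all measured genes. In no measured member did all cells of one state lie above or below all cells of the other, a separation found in 0.111% of all measured genes with ffEPSCs below and in 0.102% with ffEPSCs above.

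RAB17, a GTPase of recycling endosomes in polarised epithelial cells (chromosome 2, 237574322 to 237601614 on GRCh38, minus strand), was the lowest. RAB17 and RAB33A were pointed out in advance as low in ffEPSCs, so their values are a description. RAB17 stood at 0.476 CPM in ffEPSCs (95% interval 0.408 to 0.551) and 45.2 CPM in ESCs (44.4 to 46.1), a log2 ratio of -4.97. Without the added 1 CPM the ESC level divided by the ffEPSC level was 95.1 (82.0 to 111). Over cells its lowest, median and highest levels were 0, 0 and 5.98 CPM in ffEPSCs and 0.170, 28.3 and 131 CPM in ESCs. Of the 25 ffEPSC cells, 21 had no read and 2 reached 1 CPM, whereas 15 of the 16 ESC cells reached 1 CPM and all 16 had reads. With every cell thinned to 11714517 counts, 4 of 25 ffEPSC cells and 16 of 16 ESC cells had a read. The groups overlapped only through the 2 ffEPSC cells above 5 CPM and 1 ESC cell, one of the 4 with the fewest counts, at 0.170 CPM. The log2 ratio was -5.23 within set 1, -5.68 within set 3 and -5.17 without the 4 ESC cells.

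Most other epithelial genes were nearer to level than RAB17, as were most of all measured genes. RAB25, a RAB11-like GTPase of epithelial recycling, was at 41.0 CPM in ffEPSCs and 44.9 CPM in ESCs (-0.13 over all cells, -1.06 within set 3). Of 22 measured epithelial markers, 2 were at least 2-fold lower (CLDN4 at -3.48 and CLDN3 at -1.59, tight-junction claudins). Another 2 were at least 2-fold higher (TJP3 at 1.94 and KRT8 at 1.44), and the median log2 ratio was 0.08. Within 2-fold were 18. Of all measured genes 5.84% were lower, 8.3% higher and 85.9% within 2-fold, so the markers lay near the background. EPCAM, the epithelial adhesion molecule, stood at 851 CPM in ffEPSCs and 865 CPM in ESCs.

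RAB33A, a Golgi and vesicle RAB best known from neurons and lymphocytes (chromosome X, 130171649 to 130184870), was the second lowest. Its level was 1.61 CPM in ffEPSCs (1.48 to 1.74) and 24.4 CPM in ESCs (23.8 to 24.99), a log2 ratio of -3.28. Over cells the lowest, median and highest levels were 0, 0 and 23.3 CPM in ffEPSCs and 0, 18.4 and 110 CPM in ESCs. Reads were absent in 20 of 25 ffEPSC cells and in 2 of 16 ESC cells, so the groups overlapped, and 1 ffEPSC cell at 23.3 CPM lay above the ESC median. The ratio was -3.99 within set 1, -5.03 within set 3, -2.97 without the 4 ESC cells and -3.65 without the highest cell of each library. The neural markers FABP7 and MAP2, given above, were also lower in ffEPSCs, and their part in the RAB33A result was not tested. Within the ESCs the gene was itself uneven, with a log2 ratio of 1.03 for set 3 over set 1. In the same cells RAB33B, its paralogue at the Golgi that binds the autophagy protein ATG16L1, was nearly level at 14.9 CPM in ffEPSCs and 14.2 CPM in ESCs (0.07, but -0.92 within set 1 and 0.46 within set 3). RAB17 and RAB33A both reached 1 CPM in 1 of 25 ffEPSC cells and in 14 of 16 ESC cells, and neither did in 19 ffEPSC cells and 1 ESC cell.

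The other 2 lower members differed less and overlapped widely. RAB8B, a GTPase of delivery to the plasma membrane (chromosome 15, 63189469 to 63267782), was at 23.1 CPM in ffEPSCs (0.148, 23.3 and 48.5 CPM as lowest, median and highest cell) and 50.8 CPM in ESCs (6.78, 52.5 and 134 CPM). Its log2 ratio from all cells, -1.10, became -1.65 in set 1, -0.64 in set 3 and -0.81 without the 4 ESC cells with the fewest counts, in which it stood at 65.7 to 134 CPM against 6.78 to 67.9 CPM in the other 12. The call of 2-fold thus rested on those 4 cells. RAB3C, a secretory vesicle RAB (chromosome 5, 58582221 to 58859394), was at 4.31 CPM in ffEPSCs (0, 0.542 and 21.0 CPM) and 9.88 CPM in ESCs (0, 8.19 and 33.1 CPM), with 1 CPM in 12 of 25 ffEPSC cells and 9 of 16 ESC cells. Its ratio, -1.04 from all cells, was -1.01 in set 1 and -1.70 in set 3. In both states RAB3C was thus read in some cells and not in others.

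RAB15, a GTPase of early and recycling endosomes that slows receptor recycling (chromosome 14, 64945814 to 64973226), was the highest. It stood at 102 CPM in ffEPSCs (101 to 103) and 19.3 CPM in ESCs (18.8 to 19.8), a log2 ratio of 2.34. Over cells it ran from 1.21 through a median of 91.1 to 312 CPM in ffEPSCs and from 0 through 15.8 to 47.2 CPM in ESCs. All 25 ffEPSC cells and 11 of 16 ESC cells reached 1 CPM. The 4 ESC cells with the fewest counts had 0 to 0.444 CPM, and without them the ESC level was 23.9 CPM and the ratio 2.04. Within sets 1 and 3 the ratio was 3.23 and 1.17. Measured genes of chromosome 14 had a median ratio of 0.33, and less that median RAB15 stood at 2.01.

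RAB3B, the RAB3 member known from hormone-secreting and epithelial cells (chromosome 1, 51907956 to 51990764), was also higher and far more abundant. Its level was 257 CPM in ffEPSCs (256 to 259) and 94.5 CPM in ESCs (93.3 to 95.6), a log2 ratio of 1.44. Over cells the lowest, median and highest values were 105, 246 and 561 CPM in ffEPSCs and 4.73, 78.9 and 149 CPM in ESCs. The groups met only between 105 and 149 CPM. The ratio was 1.91 within set 1, 1.25 without the 4 ESC cells and 0.93, under 2-fold, within set 3, whose ffEPSC part is 2 cells.

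**Figure D1:**
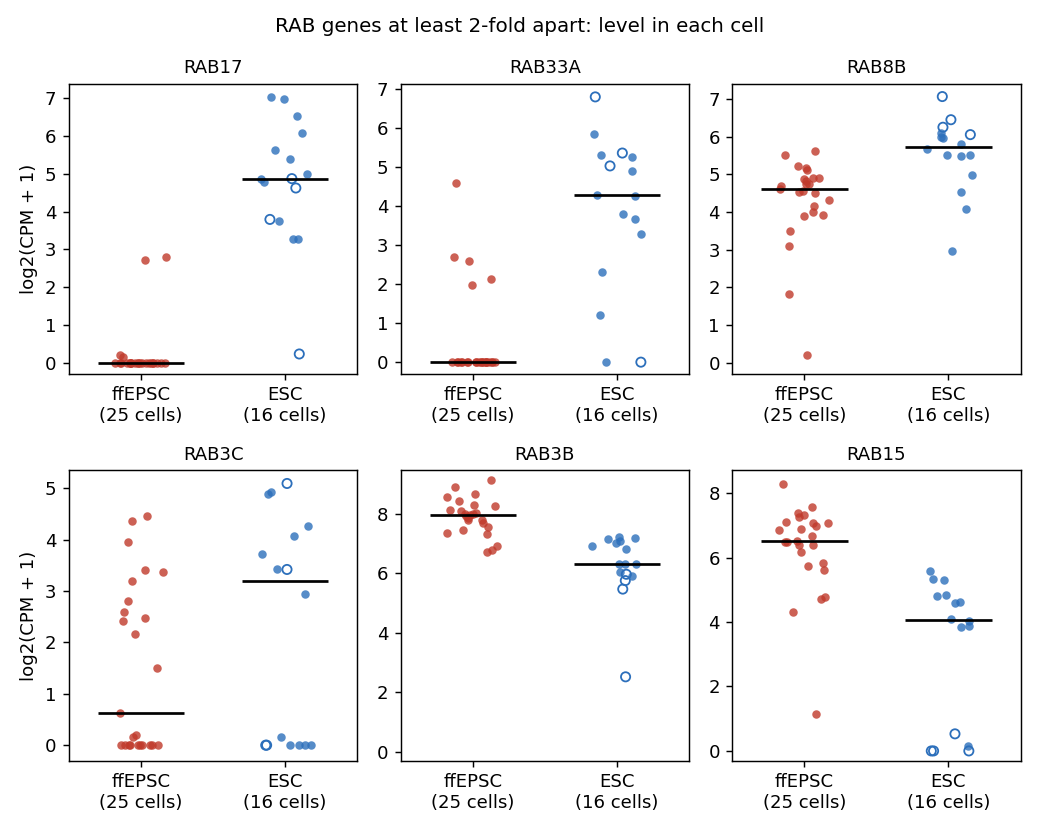
Level of the 6 RAB genes at least 2-fold apart in each cell, as log2(CPM + 1), ffEPSC cells left and ESC cells right. Bars are medians over cells, open circles are the 4 ESC cells with the fewest counts. RAB17 and RAB33A lie at 0 in most ffEPSC cells, RAB8B and RAB3C overlap widely, and RAB3B and RAB15 are higher in most ffEPSC cells.

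The steady majority was led by the RABs of general membrane routes. The 8 most abundant members, which include RAB3B, gave 65.4% of all RAB counts in ffEPSCs and 63.6% in ESCs, and 14 members reached 1 CPM in every cell of both libraries. RAB7A, which directs late endosomes to lysosomes, was at 320 CPM in ffEPSCs (198, 325 and 427 CPM as lowest, median and highest cell) and 272 CPM in ESCs (36.2, 305 and 408 CPM). RAB34, a RAB of Golgi, lysosome position and cilium formation, was at 307 CPM in ffEPSCs (148, 307 and 560 CPM) and 389 CPM in ESCs (114, 395 and 567 CPM). RAB1A, of transport between endoplasmic reticulum and Golgi, was at 276 CPM in ffEPSCs (142, 277 and 372 CPM) and 293 CPM in ESCs (218, 283 and 470 CPM). All 3 overlapped throughout, with log2 ratios of 0.23, -0.34 and -0.08. RAB11A, of the recycling endosome, was at 261 CPM in ffEPSCs (114, 269 and 391 CPM) and 344 CPM in ESCs (248, 337 and 484 CPM). Its ratio of -0.40 was close to the -0.42 and -0.40 within sets 1 and 3. RAB10 (exocytosis, 0.32), RAB6A (Golgi traffic, 0.32) and RAB18 (endoplasmic reticulum and lipid droplets, 0.06) were below 0 within set 1, at -0.05, -0.16 and -0.25, so their direction was not held.

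Part of the spread among ESCs lay in the 4 cells with the fewest counts. RAB7A was at 36.2 to 161 CPM in these cells and 263 to 408 CPM in the other 12, RAB10 at 43.2 to 94.9 CPM and 139 to 320 CPM, and RAB34 at 114 to 273 CPM and 296 to 567 CPM. None of these 3 overlapped between the 2 kinds of ESC cell, but no share of all measured genes so separated is given here for comparison. RAB1A (228 to 470 CPM and 218 to 369 CPM) and RAB11A (328 to 484 CPM and 248 to 398 CPM) overlapped. Without the 4 cells the ratio of RAB7A was 0.03. The part of depth or cell state in this was not tested.

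**Figure D2:**
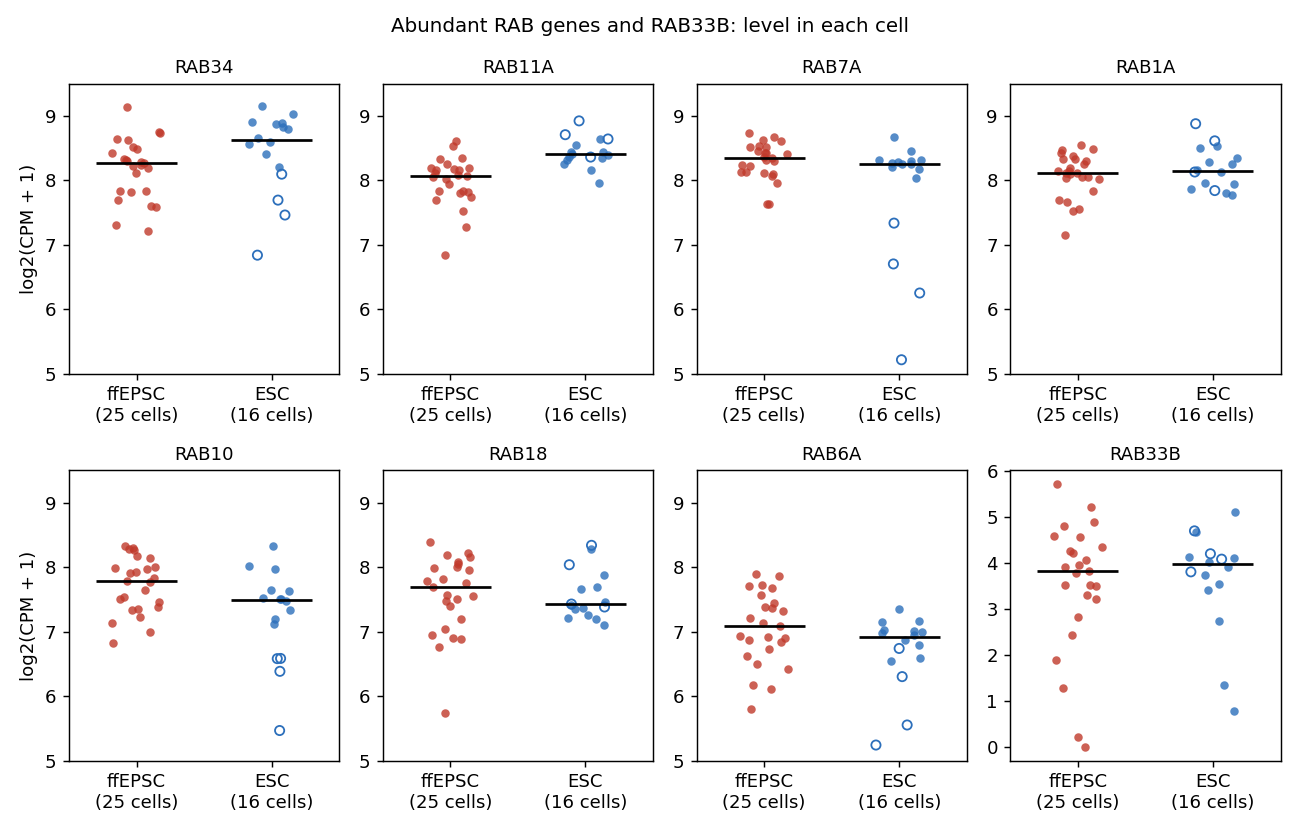
Level of 7 of the 8 most abundant RAB genes and of RAB33B in each cell, as log2(CPM + 1), ffEPSC cells left and ESC cells right, with medians as bars. Axes of the 7 abundant genes begin at 5 and that of RAB33B just below 0. Open circles, the 4 ESC cells with the fewest counts, lie low for RAB7A, RAB10 and RAB34 and not for RAB1A or RAB11A.

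By route, small differences ran both ways. Each route holds few members, and over all measured genes 5.84% were at least 2-fold lower and 8.3% higher. In endoplasmic reticulum and Golgi transport 1 of 12 measured members, RAB33A, was at least 2-fold lower and 0 higher, with a median log2 ratio of -0.01; RAB30, a Golgi RAB, was at 14.3 CPM in ffEPSCs and 8.33 CPM in ESCs (0.72), but 1.64 within set 1 and -2.29 within set 3. All 7 early endosome members were within 2-fold, with a median of 0.12. Among them RAB20, of endosomes and phagosomes, was at 7.11 CPM in ffEPSCs and 13.97 CPM in ESCs (-0.88), and at -1.11 without the 4 ESC cells. RAB31, which carries cargo between trans-Golgi and endosomes, was at 36.2 CPM in ffEPSCs and 21.4 CPM in ESCs (0.74). Of the core early endosome trio, RAB5A was at -0.15, RAB5B at 0.12 and RAB5C at 0.55. Within sets 1 and 3, RAB5A was at 0.82 and -1.22, RAB5B at 1.17 and 1.07, past 2-fold in both, and RAB5C at 0.92 and 0.67.

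In recycling and polarised delivery, 2 of 12 were at least 2-fold lower (RAB17 and RAB8B) and 1 higher (RAB15), with a median of -0.21. RAB14, of endosome and Golgi traffic, was at 78.3 CPM in ffEPSCs (26.6, 79.0 and 148 CPM as lowest, median and highest cell) and 73.3 CPM in ESCs (29.6, 73.5 and 115 CPM). RAB4A, of fast recycling from early endosomes, was at 36.0 CPM in ffEPSCs and 30.1 CPM in ESCs (0.25, but -0.45 within set 1). None of 4 late endosome and lysosome members passed 2-fold (median 0.17); RAB38, a melanosome RAB, was lowest at 14.9 CPM in ffEPSCs and 26.4 CPM in ESCs (-0.79, -1.78 within set 1 and -1.09 within set 3). Of 4 regulated secretion members RAB3C was lower and RAB3B higher (median 0.32). RAB9A, of return from late endosomes to the Golgi, was at 93.8 CPM in ffEPSCs and 87.1 CPM in ESCs (0.11). The cilium RABs RAB28 and RAB23 were at -0.05 and -0.36, and RAB40C, of the group with a SOCS box for ubiquitin ligation, at -0.25.

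Many of these values depended on the set. At least 2-fold lower were 9 of 43 members within set 1 (11.6% of all measured genes) and 10 of 43 within set 3 (15.5%), and at least 2-fold higher were 5 within set 1 (14.4%) and 5 within set 3 (10.1%). In both sets RAB17, RAB33A, RAB3C and RAB38 were lower, and RAB15 and RAB5B higher, by at least 2-fold. For 24 of the 43 the ratio had the same sign in both sets as in all cells, which include the cells of both sets. No share over all measured genes is given here for this count. For scale, between sets of a single state, ESC set 3 was at least 2-fold lower than ESC set 1 for 2 members (3.24% of all measured genes) and higher for 3 (4.62%), and ffEPSC set 4 was lower than ffEPSC set 2 for 0 (2.74%) and higher for 2 (2.69%). In these comparisons the ratio farthest from 0 was -1.74, for RAB3A in ESCs. RAB17, RAB33A and RAB15 had ratios between states that were larger in size than that. ffEPSC sets 1 and 3, of 3 and 2 cells, were not among these comparisons. In them RAB39A was at 0 and 13.3 CPM and RAB30 at 26.3 and 0.999 CPM, so small sets of a single state could differ more widely. Without the 4 ESC cells with the fewest counts, 4 members were at least 2-fold lower (6.41% of all measured genes), with RAB20 in place of RAB8B, and 2 were higher (8.08%).

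**Figure D3:**
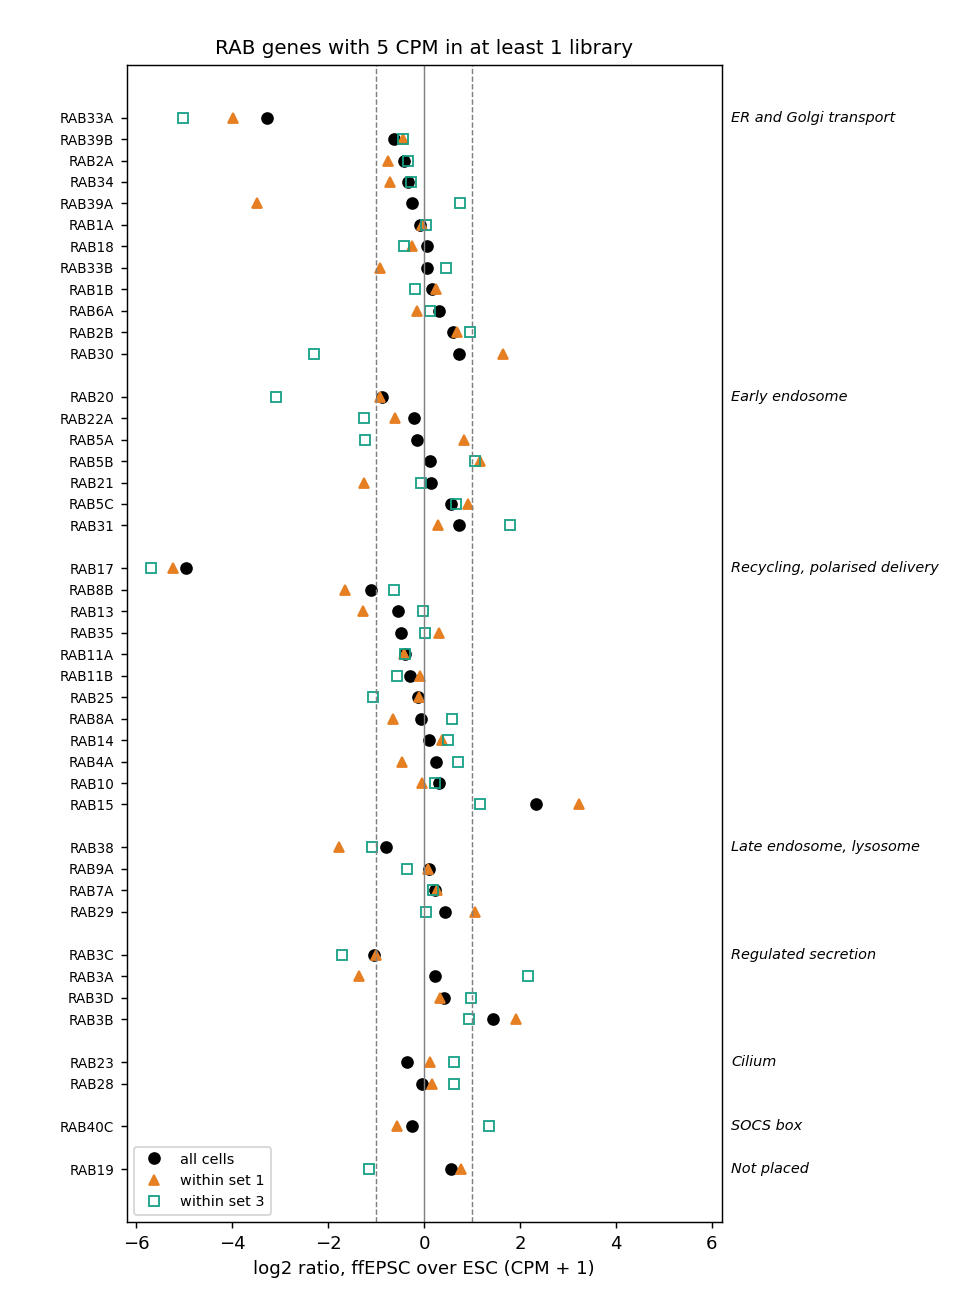
Log2 ratio, ffEPSC over ESC after adding 1 CPM, of the 43 RAB genes with 5 CPM in at least 1 library, grouped by route. Black points use all cells, triangles set 1 and open squares set 3; dashed lines mark 2-fold. RAB17 and RAB33A are far to the left and RAB15 to the right under all 3, while the other members lie nearer 0 or differ between sets.

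Because paralogues can serve the same route, their levels were also compared per kilobase of exon (GENCODE 29 basic transcripts), which allows levels of different genes to be set side by side. In the RAB33 pair, RAB33A made up 28.1% of the summed level in ffEPSCs and 86.2% in ESCs, and the pair summed to 4.55 CPM per kilobase in ffEPSCs and 22.5 in ESCs. RAB33B was thus the major member in ffEPSCs and the minor one in ESCs. In the RAB3 group, RAB3B made up 69.8% in ffEPSCs and 48.3% in ESCs, RAB3A, the synaptic vesicle RAB, 24.3% and 38.8%, and RAB3C 1.69% and 7.29%. The group summed to 28.7 CPM per kilobase in ffEPSCs and 15.2 in ESCs. RAB3A itself was uneven, at 0.22 over all cells but -1.35 within set 1 and 2.17 within set 3.

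RAB8A, which also serves the cilium, was the larger member of its pair in both states, at 75.9% in ffEPSCs and 60.1% in ESCs, since RAB8A itself was nearly level (-0.06) and RAB8B lower. In the RAB2 pair of Golgi RABs, RAB2B made up 28.6% in ffEPSCs and 16.3% in ESCs. RAB2A was at 73.5 CPM in ffEPSCs and 97.95 CPM in ESCs (-0.41), and RAB2B at 22.5 and 14.5 CPM (0.59), each with the same sign within sets 1 and 3. The RAB11 pair kept its makeup, with RAB11A at 84.7% in ffEPSCs and 85.4% in ESCs, as did RAB6A (97.6% and 97.3% of its group) and RAB9A (99.9% and 99.7%).

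**Figure D4:**
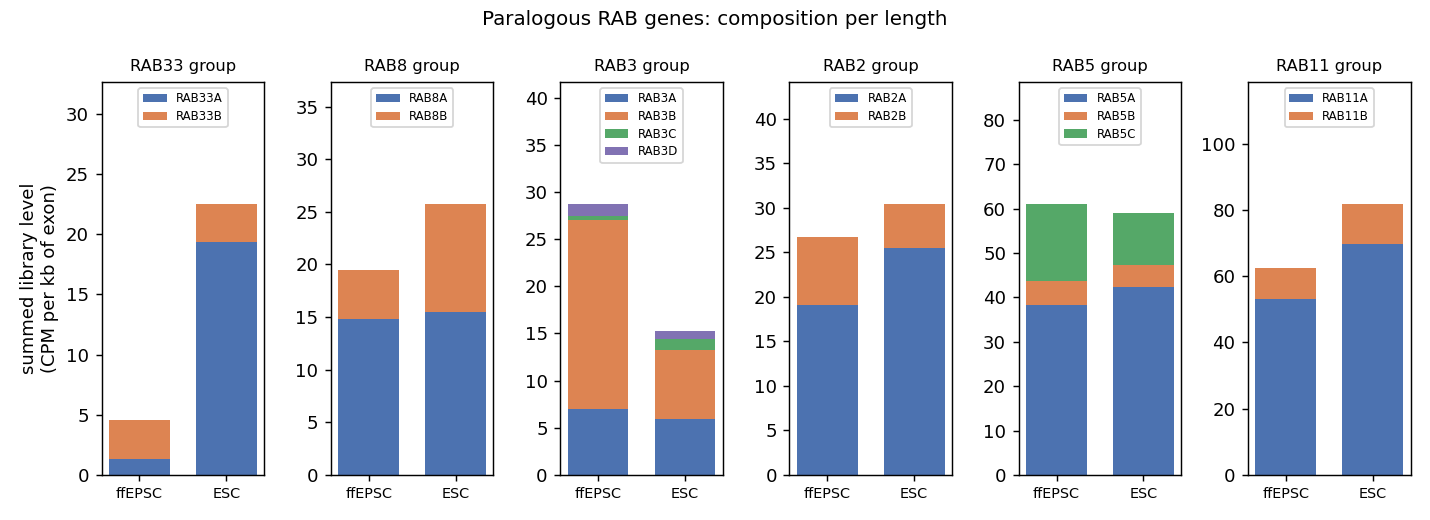
Library level per kilobase of exon of the members of 6 paralogue groups, stacked, ffEPSC left and ESC right; each panel has its own axis from 0. In ffEPSCs RAB33A is the smaller member of the RAB33 pair and RAB3B a larger share of the RAB3 group, while the RAB11 pair keeps its makeup.

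The machinery that loads, carries and switches RAB proteins was mostly level. Of 12 measured genes of prenylation and the membrane cycle, 0 were 2-fold apart and the median log2 ratio was 0.12. GDI2, a widely expressed GDP dissociation inhibitor, was at 644 CPM in ffEPSCs and 738 CPM in ESCs. The genes farthest apart were FNTB, the beta subunit of farnesyltransferase (0.91), CHM, the escort protein REP1 that presents RABs for prenylation (0.75), RABIF, a RAB chaperone (-0.49), and RABGGTA, of the enzyme that prenylates RABs (0.40, but -4.16 within set 1). Over the 117 measured genes of this list, the GEFs, the GAPs and the effectors together, 3 (2.56%) were lower and 10 (8.55%) higher by at least 2-fold, against the 5.84% and 8.3% of all measured genes.

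Of 33 measured GEF genes, 1 was at least 2-fold lower and 2 higher, with a median of -0.07. DENND1A, the exchange factor of RAB35, was at 2.64 CPM in ffEPSCs (0, 0.297 and 21.0 CPM as lowest, median and highest cell) and 13.03 CPM in ESCs (2.63, 10.1 and 35.4 CPM). Its ratio was -1.95, and -1.47 and -1.85 within sets 1 and 3, while RAB35 was at -0.49 (0.32 within set 1 and 0.01 within set 3). DENND11 (1.14) and HPS4 (1.03), which with HPS1 activates RAB32 and RAB38, were higher over all cells but not within set 3 (-0.47 and -0.52), and HPS4 was at 0.94 without the 4 ESC cells. DENND5A, an exchange factor of RAB39, was at 0.97 but -1.79 within set 3.

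Of 27 measured GAP genes, 1 was at least 2-fold lower and 2 higher, with a median of 0.01. TBC1D23, a TBC domain protein that links endosome-derived vesicles to golgins, was at 207 CPM in ffEPSCs (71.1, 201 and 406 CPM) and 71.5 CPM in ESCs (0.340, 68.8 and 162 CPM), a ratio of 1.52 that was 2.26 and 2.005 within sets 1 and 3. TBC1D25, a GAP of RAB33B, was at 6.01 CPM in ffEPSCs and 2.12 CPM in ESCs (1.17, but 0.95 without the 4 ESC cells), and TBC1D22B was at 0.90. RABGAP1L was lower, at 91.5 CPM in ffEPSCs and 191 CPM in ESCs (-1.05, but -0.35 within set 1).

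Of 45 measured effector genes, 1 was at least 2-fold lower and 6 higher, with a median of 0.08. SYTL2, a synaptotagmin-like effector of RAB27, was at 1.04 CPM in ffEPSCs (0, 0 and 11.8 CPM) and 17.1 CPM in ESCs (0, 12.6 and 91.8 CPM), with 1 CPM in 3 of 25 and 13 of 16 cells. Its ratio was -3.15, and -4.46 and -3.38 within sets 1 and 3, although RAB27A was low in both states, at 3.08 CPM in ffEPSCs and 3.87 CPM in ESCs. RAB11FIP2, which links RAB11 to myosin V motors, was at 20.2 CPM in ffEPSCs (0.768, 16.6 and 89.5 CPM) and 5.43 CPM in ESCs (0, 1.102 and 34.6 CPM), a ratio of 1.72 (2.63 and 1.56 within the sets). BICD1, a dynein adaptor for RAB6 vesicles, was at 87.7 CPM in ffEPSCs and 31.2 CPM in ESCs (1.46, and 1.37 and 1.15 within the sets). UNC13D, a RAB27 effector of granule release, was at 1.34 but 0.40 within set 3.

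**Figure D5:**
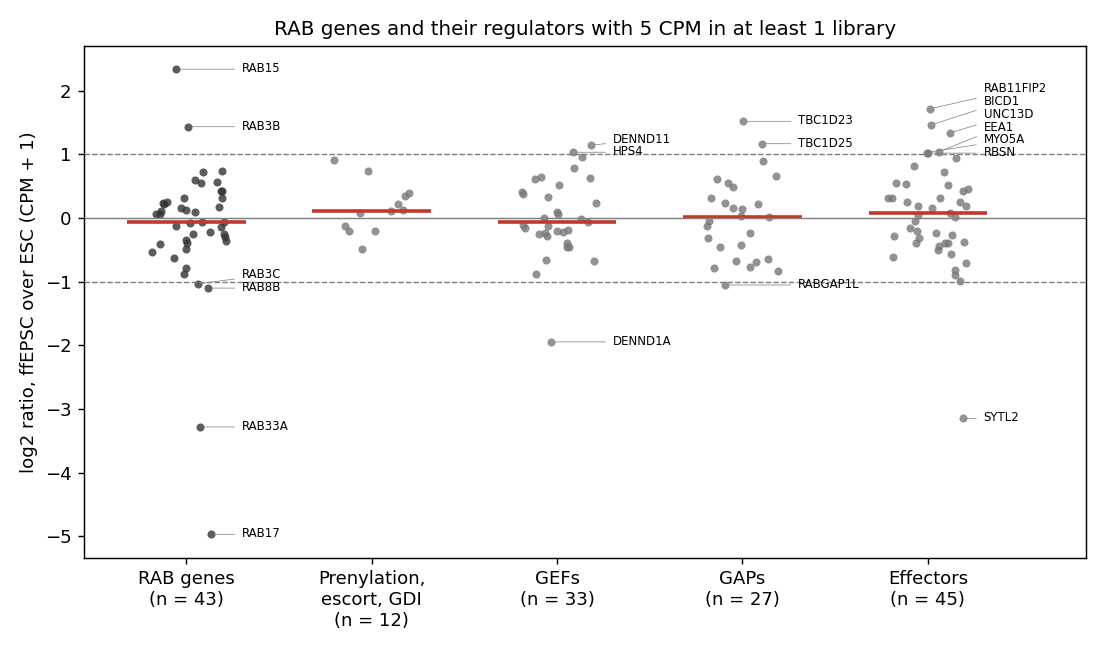
Log2 ratio, ffEPSC over ESC after adding 1 CPM, of measured RAB genes and of measured genes of the prenylation and membrane cycle, GEF, GAP and effector lists. Each point is a gene, red bars are medians, dashed lines mark 2-fold, and genes past it are named. All 5 medians lie near 0, and RAB17, RAB33A and SYTL2 are lowest.

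The 17 members below 5 CPM in both libraries had ratios from -0.63 to 1.18. RAB36, a RAB of Golgi and late endosomes, stood just under the threshold at 4.86 CPM in ffEPSCs and 1.58 CPM in ESCs (1.18, but -0.34 within set 1 and 0.98 without the 4 ESC cells), with 1 CPM in 12 of 25 and 3 of 16 cells. RAB4B had 0.545 CPM in ffEPSCs from 3 cells and 0 reads in ESCs, which allows up to 0.0113 CPM. Some counts depend on how reads were assigned to overlapping or similar genes, and the sources used here do not state it. RAB4B shares 73.3% of its exon bases with read-through transcripts of neighbouring genes and RAB43 84.5%; of the 50-base words of RAB43P1 transcripts, 91.7% occur in RAB43, and RAB6C and RAB6D share 47.4% and 48.0% of theirs with each other. RAB23 (57.7% of exon bases) and RAB1B (37.1%) overlap genes on the other strand, and whether strand was used is not stated. None of the 6 genes past 2-fold was among these.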

How the data were processed

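The deposited gene tables hold whole-number counts per gene and cell, which the authors left without normalization; per the submitters' processing notes, the tools were HISAT2 2.2.1, Subread 2.0.6 with featureCounts, SAMtools 1.6 and bcl2fastq, and the builds GRCh38 and T2T-CHM13. The sources used here do not state the annotation, the use of strand or the treatment of multi-mapping reads. Repeat tables were not used. The labelled cell type gave each library's state. Cells were summed per library, and no cell was removed, clustered or called a doublet; 0 cell names were shared by the libraries.

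Python 3.11.15, numpy 2.4.6, pandas 2.3.3 and scipy 1.17.1 computed CPM, log2 ratios with 1 CPM added, exact Poisson intervals for levels, and exact binomial intervals for ratios without it. In the median cell, 98.4% of non-zero counts in ffEPSCs and 98.5% in ESCs were even, so intervals in fragments would be wider. A count of 0 allows 3 counts. Positions and exon lengths are from GENCODE 29, which gave a single position to 21170 of 22474 listed genes. The steps were tested on simulated counts.

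Members, lists and rules were chosen with earlier results of these data known. Named genes were RAB17, RAB33A and its paralogue RAB33B, all measured members at least 2-fold apart, the 8 most abundant members, up to 4 genes per regulator list with the largest ratios, and the neighbours of RAB17 and RAB33A. Further genes were named after their values were seen: RAB25, RAB20, RAB31, RAB38, RAB30, RAB36, RAB35, RAB27A, GDI2, other members of the route groups, the members of the paralogue groups, and single markers.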

Additional observations from a re-analysis of the deposited data

How the results depend on the processing

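RAB17 and RAB33A stayed at least 2-fold lower, RAB3C lower except at the 20 CPM floor, which it does not reach, and RAB15 at least 2-fold higher, under all 12 alternatives. None of the 6 members past 2-fold changed sign under them. RAB36 joined the higher members at a 1 CPM floor and without a floor. The count of higher RAB genes, 2 as reported, was 5 with the median of cells, 5 within set 1 and 5 within set 3. The share of all measured genes that were higher, 8.3% as reported, was 11.8%, 14.4% and 10.1% in the same order. The count of lower RAB genes, 4 as reported, was 9 within set 1 and 10 within set 3, sets with few ffEPSC cells. The share of all measured genes that were lower, 5.84% as reported, was 11.6% and 15.5% within these sets. RAB8B was within 2-fold within set 3 and without the 4 ESC cells with the fewest counts, RAB3B within set 3.

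For the regulator lists, 3 genes were lower as reported, 5 with a pseudocount of 0.1 CPM, 6 at a 1 CPM floor, 1 at a 20 CPM floor, 6 without a floor, 5 with the mean of cells, 12 with their median, 14 within set 1 and 19 within set 3. As reported, the counts were out of 117 measured regulators. The number of regulators past the other floors is not given here. Of all genes past the same floor, 5.84% were lower as reported, 6.83% with the pseudocount of 0.1 CPM and 7.37% at 1 CPM. The share was 4.07% at 20 CPM, 5.04% without a floor and 5.82% with the mean of cells. It was 9.22% with the median of cells, 11.6% within set 1 and 15.5% within set 3. Higher were 10 regulators as reported, 6 at 20 CPM, 18 with the median of cells and 15 within each of sets 1 and 3. The shares of all genes past the same floor were 8.3%, 5.54%, 11.8%, 14.4% and 10.1% in that order. Within set 3 the median was -0.31 for the membrane cycle, -0.39 for GEFs and -0.41 for GAPs, against 0.12, -0.07 and 0.01 as reported; the cause was not tested. Counting any read after thinning in place of 1 CPM gave 100% of cells for RAB17 and RAB33B in ESCs and for RAB8B in ffEPSCs, against 93.8%, 93.8% and 96%. No paired analysis was possible because each state is 1 sample. Any read after thinning was found for RAB3C in 60% of ffEPSC cells and 62.5% of ESC cells; the effect of the number of cells was not tested.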

Other observations

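Levels of the nearest listed genes around the 2 lowest members were also read. Beside RAB17 on chromosome 2, MLPH, which links RAB27A to myosin Va on melanosomes, was at 0.155 CPM in ffEPSCs and 2.68 CPM in ESCs (log2 ratio -1.67), below 5 CPM in both libraries. Without the added 1 CPM its ESC level divided by its ffEPSC level was 17.3 (13.2 to 23, counting error only), with 1 CPM in 1 of 25 ffEPSC cells and 4 of 16 ESC cells. LRRFIP1 on the other side was at 33.6 CPM in ffEPSCs and 40.5 CPM in ESCs (-0.26). Beside RAB33A on chromosome X, AIFM1, a mitochondrial flavoprotein gene, was at 157 CPM in ffEPSCs and 219 CPM in ESCs (-0.48), and ZNF280C at 21.6 and 45.8 CPM (-1.05, but -0.68 within set 1 and -0.03 within set 3).

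The 2 higher members also ran together among cells of a state. Over the 25 ffEPSC cells RAB15 and RAB3B had a Pearson r of 0.75 on log2(CPM + 1) and a Spearman rho of 0.67. Over the 16 ESC cells these were 0.61 and 0.60, but 0.33 and 0.25 without the 4 cells with the fewest counts. RAB15 and POU5F1 had a Pearson r of 0.73 over ffEPSC cells, 0.88 over ESC cells and 0.83 over ESC cells without those 4. By rank they were less close, with a Spearman rho of 0.49, 0.68 and 0.33 in the same order. In ffEPSCs 1 cell lay apart, with RAB15 at 1.21 CPM and POU5F1 at 518 CPM. The next lowest values were 18.7 and 837 CPM. Among ESC cells without those 4, 1 cell had 0.119 CPM of RAB15 and 496 CPM of POU5F1. The others had at least 13.5 and 878 CPM. Pearson r without these single cells was not computed. RAB3B and POU5F1 had a Pearson r of 0.36, 0.80 and 0.28 and a Spearman rho of 0.14, 0.66 and 0.24. The points share 1 library per state, these were among 6 pairs computed after values were seen, and cells are not independent replicates. RAB17 and RAB33A, the 2 lowest members, had a Spearman rho of 0.01 over ESC cells.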
